A study of Mus musculus with 35 samples.

Results

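The 41 genes described here encode DNA repair and checkpoint proteins. They were listed by name, by a rule that uses no measured value, but with earlier results of these data known. Their counts beside those of all genes are therefore descriptions. Each matched 1 of the 48709 mouse genes counted in every library. All 41 passed the filter on low counts and were among the 13819 genes tested. By role, 16 act in homologous recombination, 10 in the Fanconi anemia pathway, 2 in mismatch repair and 9 as checkpoint kinases and their partners, and 4 respond to stalled replication forks and DNA breaks.

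RNA was sequenced from OT-I CTLs, mouse CD8+ effector T cells whose transgenic T cell receptor recognizes an ovalbumin peptide. Of the 7 groups, all of 5 libraries, 1 was collected at 0 h. The other 6 spent 24 h in medium of pH 7.4, pH 7 or pH 6.6, and at every pH 1 group received 200 IU/mL of mouse IL-2 while 1 received none. The cells of every group came from OT-I spleens by negative selection of CD8+ T cells, were activated through CD3 and CD28 and then expanded in IL-2 before the experiment, so that cells without IL-2 are cells from which it was withdrawn. Medium was acidified with HCl, dead cells were removed on Ficoll before RNA extraction, and each replicate was cultured in all conditions. The sources used here do not say whether the replicates were separate mice, nor the age of the mice, so the p-values measure the spread between these cultures.

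Homologous recombination repairs a broken chromosome by copying the intact sister chromatid. Brca1 with Bard1 promotes the trimming of DNA ends, and Palb2 bridges Brca1 to Brca2, which acts in the later step of strand exchange. The Fanconi anemia pathway unhooks strands that are crosslinked to each other, and the kinases Atr and Atm signal unreplicated or broken DNA through Chek1 and Chek2. Much of this machinery is known to be transcribed as cells enter S phase, and T cells that divide fast in IL-2 rely on it at each round of replication.

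Total counts on genes ranged from 16721319 to 34033340 per library. Cd8a read 624 to 1575 CPM (counts scaled to the size of the library) over the 35 libraries, Cd8b1 196 to 440, Cd3e 350 to 611 and Cd3d 266 to 836 CPM. The effector genes Gzmb (39.4 to 8872 CPM), Prf1 (10.4 to 682 CPM) and Nkg7 (225 to 1106 CPM) varied more. The median of Gzmb was 7840 CPM at 0 h, 131 CPM at pH 7.4 without IL-2 and 1010 CPM at pH 6.6 with IL-2. Of 12 markers of other cell types, Ms4a1 of B cells and Hbb-bs of red blood cells were at 0 in all 35 libraries. The summed level of the 12 markers had a median of 11.1 CPM at pH 6.6 without IL-2 and 91.3 CPM at 0 h, the lowest and highest of the 7 groups, and most of it was Klrb1c (7.70 to 94.6 CPM), an NK cell receptor gene that activated CD8+ T cells can also express. Its part in the results was not tested. In such bulk RNA, fewer cells of a type and less RNA per cell cannot be told apart. Reads from Rad54b are uncertain, since 35.8% of its exon bases are shared with Fsbp on the same strand, as are those from Atrip, which shares 16.04% with Trex1. Smaller shares on the same strand were found for Pms2 (5.9%, Gm42421 and Rsph10b) and Tonsl (1.7%, Vps28).

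On average, the 41 genes were high in only some of the conditions, a pattern that Tonsl and Trp53bp1, for example, did not share. The mean level of the 41, as log2 CPM averaged over the genes of a library, was 4.41 ± 0.15 (SD, n = 5) at 0 h. After 24 h without IL-2 it was 3.29 ± 0.10 at pH 7.4, 3.52 ± 0.16 at pH 7 and 4.13 ± 0.20 at pH 6.6. With IL-2 it was 5.71 ± 0.11 at pH 7.4, 5.70 ± 0.04 at pH 7 and 4.47 ± 0.12 at pH 6.6. Acid thus went with a lower mean where IL-2 was present and a higher mean where it was absent, and in both media the mean at pH 6.6 lay nearer to that at 0 h than the mean at pH 7.4 did.

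**Figure D1:**
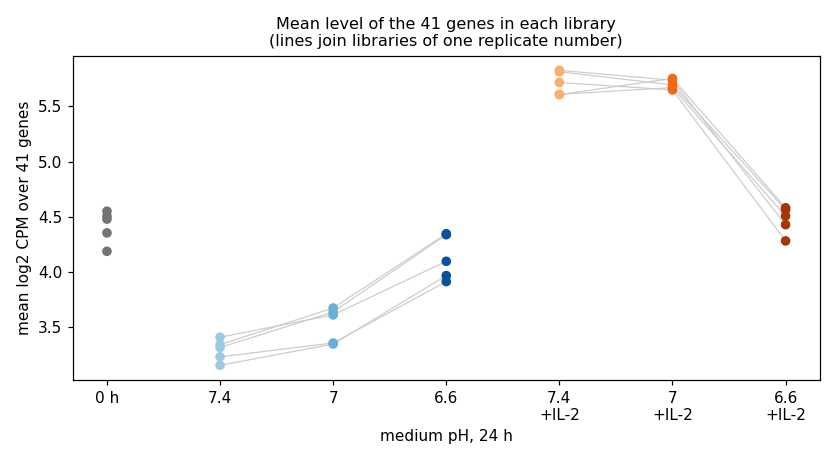
Each point is the mean log2 CPM of the 41 genes in 1 library, by group on the x axis, and grey lines join libraries of the same replicate number within a medium. The 5 libraries at pH 6.6 with IL-2 sit between 4.28 and 4.58, below all those at pH 7.4 with IL-2 (5.61 to 5.83), while those at pH 6.6 without IL-2 (3.91 to 4.35) sit above all those at pH 7.4 without IL-2 (3.15 to 3.41).

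Compared per length, in RPKM (CPM divided by the exon length in kilobases), the genes were not alike in level. At pH 7.4 with IL-2 the highest were Tipin (120.0 RPKM), Parp1 (43.6), Topbp1 (42.7), Msh6 (37.8) and Tonsl (32.5), and the lowest were Atrip (0.109), Rad51b (1.54) and Fancc (2.34). Without IL-2 at the same pH the order was another, with Tonsl first (32.01 RPKM), ahead of Msh6 (17.6), Atm (14.4), Parp1 (14.04) and Topbp1 (13.4), while Rad51b (0.0849) and Exo1 (0.108) were at the bottom with Atrip (0.115).

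The first question was how acid medium affected these genes in cells that received IL-2. At pH 6.6, 36 of the 41 genes were lower than at pH 7.4 and 2 were higher, at an adjusted p under 0.05 in edgeR's quasi-likelihood test with Benjamini-Hochberg adjustment over all genes tested. Of all 13819 genes, 40.9% were lower and 35.4% higher. The median log2 fold change was -1.32 over the 41 genes and -0.07 over all genes tested. The 5 values at pH 6.6 did not overlap the 5 at pH 7.4 for 37 of the 41, as was so for 59.2% of all genes tested. Of the 36 that fell, 23 fell by 1 or more on the log2 scale (19% of all genes) and 9 by 2 or more (4.8%).

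All 16 genes of homologous recombination fell, with a median log2 fold change of -1.76. Exo1, a nuclease that resects DNA ends, fell most of all 41. It read 65.2, 70.3, 71.8, 59.2 and 61.1 CPM in replicates 1 to 5 at pH 7.4 and 7.86, 8.04, 8.26, 12.05 and 12.8 CPM at pH 6.6, so that the groups were far apart. Its log2 fold change was -2.71 ± 0.17 (SE), or 6.56-fold lower (adjusted p = 2.1e-15, edgeR).

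Eme1, which forms a structure-specific nuclease with Mus81, was next. At pH 7.4 it read 37.1, 37.3, 39.3, 36.5 and 34.2 CPM, which fell at pH 6.6 to 6.24, 5.797, 7.47, 6.54 and 8.08 CPM. Its change was -2.42 ± 0.14 (adjusted p = 1.6e-16, edgeR), whereas its partner Mus81 changed by -0.85 ± 0.12 (adjusted p = 8.1e-08, edgeR), from 19.6 ± 1.87 to 10.9 ± 1.57 CPM (mean ± SD, n = 5). Rad54l, a motor protein that moves along DNA, changed by -2.38 ± 0.14, and its relative Rad54b by -1.97 ± 0.19. Genes on the opposite strand share 15.4% of the exon bases of Rad54l (Lrrc41) and 10.7% of those of Eme1 (Lrrc59 and Mrpl27). Rad51b, Rad51c, Xrcc3 and Xrcc2, which act in strand exchange, fell too, with log2 fold changes of -1.86 for Rad51b, -1.96 for Rad51c, -1.97 for Xrcc3 and -1.32 for Xrcc2.

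Brca1 and Brca2 both fell. Brca2, which lies at chr5:150522630-150570329 (GRCm38), read 108, 122, 107, 89.004 and 80.7 CPM at pH 7.4 and 20.05, 18.6, 20.1, 23.6 and 22.6 CPM at pH 6.6, a log2 fold change of -2.26 ± 0.18 (adjusted p = 4.7e-13, edgeR). Brca1, at chr11:101488764-101551955, read 119.7, 142, 135, 98.9 and 99.2 CPM and 43.8, 79.1, 84.5, 54.8 and 60.7 CPM, a change of -0.90 ± 0.11 (adjusted p = 1.5e-08, edgeR). The acid values of Brca2 were all within 18.6 to 23.6 CPM, while those of Brca1 ran from 43.8 to 84.5 CPM and still did not reach the neutral ones. Bard1, the partner of Brca1, changed by -1.403 ± 0.13, and Palb2, which links both Brca proteins, by -0.90 ± 0.09. Rad51ap1, which stimulates strand invasion, changed by -1.67 ± 0.15, the helicase Blm by -0.94 ± 0.11, and Rbbp8, which starts end resection, by -0.54 ± 0.10.

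All 10 Fanconi anemia genes fell as well, with a median of -1.48. Fancb, a subunit of the core ubiquitin ligase complex, read 23.1, 26.1, 25.3, 20.3 and 21.8 CPM at pH 7.4 and 5.49, 5.24, 5.96, 5.76 and 6.08 CPM at pH 6.6 (-2.03 ± 0.15, adjusted p = 7.3e-14, edgeR). Fancd2, the main target of that ligase, read 71.9, 94.3, 88.4, 74.02 and 72.7 CPM and 13.7, 21.99, 20.5, 20.8 and 22.2 CPM (-2.002 ± 0.16, adjusted p = 3.5e-13, edgeR). The lowest neutral value was above the highest acid value in both genes. Fanci, which pairs with Fancd2, changed by -1.88 ± 0.12, Fancf by -1.83 ± 0.14, and the helicase Brip1 by -1.75 ± 0.15. The core subunits Fancg and Fancc fell least, by 0.47 and 0.34 on the log2 scale, and Fanca, Fancl and Fancm lay between, at -1.201, -1.06 and -0.87. Fancc, Fancf, Fanci, Fancl and Fanca share up to 18.6% of their exon bases with genes on the opposite strand. Fancm (7.07%), Palb2 (5.64%), Atr (5.03%) and Mus81 (4.85%) share less. Whether the counting used strand is not given in the sources used here.

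Both mismatch repair genes fell modestly. Msh6, which recognizes mismatched bases, went from 157, 178, 174, 149.7 and 162 CPM to 103, 125, 126, 111 and 119.6 CPM (-0.49 ± 0.09, adjusted p = 2.2e-05, edgeR). Pms2, which nicks the strand to be repaired, went from 48.4, 47.6, 50.5, 45.1 and 45.7 CPM to 36.3, 31.8, 37.04, 35.6 and 37.4 CPM (-0.41 ± 0.06, adjusted p = 1.3e-07, edgeR). Both changes were under 1 on the log2 scale, and in neither gene did the groups overlap.

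Among the 9 checkpoint genes, 6 fell (40.9% of all genes tested did) and 3 were not called. The 4 that fell most act at the replication fork. Tipin read 225, 211, 234, 201 and 249 CPM at pH 7.4 and 47.1, 44.3, 50.001, 57.9 and 60.9 CPM at pH 6.6 (-2.11 ± 0.12, adjusted p = 5.1e-17, edgeR), and Timeless, its partner in fork protection, changed by -2.06 ± 0.14. Chek1, the kinase that Atr activates, read 85.4, 77.6, 76.3, 68.5 and 65.98 CPM and 17.3, 15.6, 18.9, 16.98 and 19.5 CPM (-2.07 ± 0.12, adjusted p = 1.5e-16, edgeR). Clspn, which brings Chek1 to Atr, read 176, 183, 189.5, 149.7 and 149 CPM and 34.1, 45.02, 49.5, 41.9 and 45.97 CPM (-1.95 ± 0.16, adjusted p = 3e-12, edgeR). In none of the 3 did an acid library come near a neutral one.

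The other checkpoint genes stood closer to their neutral levels. Topbp1, which activates Atr, changed by -0.54 ± 0.10. Atm read 187, 187, 159.9, 121 and 100.3 CPM at pH 7.4 and 99.3, 98.7, 92.1, 98.3 and 105 CPM at pH 6.6. The neutral values spread widely, from 100.3 to 187 CPM, and the groups overlapped, and Atm fell by 0.58 ± 0.18 on the log2 scale (adjusted p = 0.0042, edgeR) in 4 of 5 replicates. Without replicate 1 or without replicate 2 it was no longer called, at -0.43 and -0.42. Atr had a log2 fold change of -0.09 ± 0.10 (adjusted p = 0.42, edgeR), Chek2 of -0.24 ± 0.13 (adjusted p = 0.086) and Atrip, the binding partner of Atr, of 0.03 ± 0.24 (adjusted p = 0.9). Atrip was near the limit of what these libraries can measure, at 0.7795 and 0.797 CPM.

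The 4 genes of the response to stalled forks and breaks were divided. Parp1, which builds poly(ADP-ribose) chains at breaks, fell from 213, 254, 242, 225 and 221 CPM to 76.6, 91.1, 80.3, 91.4 and 93.4 CPM (-1.41 ± 0.07, adjusted p = 1.5e-18, edgeR). Trp53bp1, which protects broken ends from resection and favors end joining, rose instead. It lies at chr2:121193281-121271407 and read 81.7, 98.6, 95.1, 88.3 and 84.6 CPM at pH 7.4 and 136, 192, 179, 175 and 168 CPM at pH 6.6, so that even the lowest acid library was above the highest neutral one (0.92 ± 0.07, adjusted p = 5.3e-13, edgeR). Of its exon bases, 15.04% are shared with Tubgcp4 on the opposite strand.

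Tonsl and Mms22l encode partners in a complex that works at stalled forks, yet their RNAs moved in opposite directions. Tonsl rose from 156, 155, 161, 164 and 169.9 CPM to 189.5, 194, 186, 213 and 198 CPM (0.28 ± 0.08, adjusted p = 0.0013, edgeR). Mms22l fell from 100.4, 106, 108, 91.6 and 89.4 CPM to 59.2, 81.8, 89.1, 66.2 and 68.5 CPM (-0.45 ± 0.08, adjusted p = 5.2e-06, edgeR). Neither pair of groups overlapped. Beside Exo1, Eme1, Fancb, Fancd2, Msh6, Pms2, Tipin, Chek1, Parp1, Trp53bp1, Tonsl, Clspn and Rad51ap1, which a rule on the size or direction of change named, Brca1, Brca2, Mms22l, Atm, Fancg, Mus81 and Fancf were singled out after their values were seen.

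**Figure D2:**
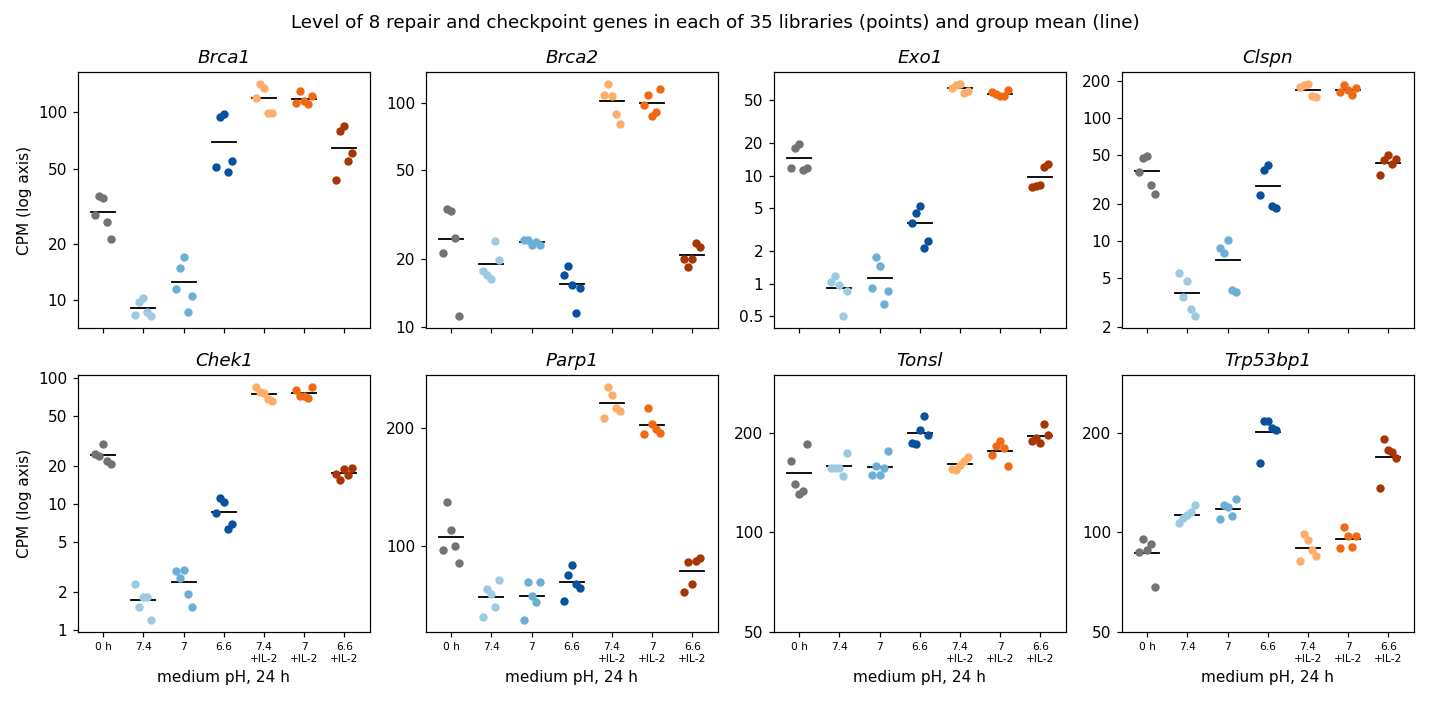
CPM (log axis) of 8 genes in each of the 35 libraries, with points for replicates 1 to 5 from left to right in each group and a line at the group mean. Brca1, Brca2, Exo1, Clspn, Chek1 and Parp1 are high at pH 7.4 and pH 7 with IL-2 and fall at pH 6.6, whereas Tonsl and Trp53bp1 are higher at pH 6.6 in both media.

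Since so many of the genes moved together, the sequence before their starts is shown for a few. RefSeq promoter windows of 300 bases (250 before and 50 after the start, GRCm38.p6) were found for 34 of the 41 genes. Matches to an E2F-type site (the letters TTCCCGC, or in their place TTCGCGC, or else TTGCCGC, or lastly TTGGCGC, on either strand) were present in 20 of the 34 (58.8%), against 19.4% of the 9977 tested genes with a window and 9.57% of all 32851 windows. A CCAAT box, on either strand, was in 19 of 34 (55.9%, against 42.8% of tested genes and 37.4% of all windows), and a CHR element (TTTGAA or TTCGAA, on either strand) in 4 of 34 (11.8%, against 16.6% and 19.2%). The 3 motifs can overlap, and a match is a description of the letters, not a bound site. Shown are the 250 bases before the start of Brca2 (chr5:150522371-150522620, plus strand), Fancb (chrX:164980342-164980591, plus strand), Fancf (chr7:51862268-51862517, minus strand) and Fancm (chr12:65075353-65075602, plus strand), which fell at pH 6.6 with IL-2, and of Trp53bp1 (chr2:121271408-121271657, minus strand), which rose. They are written 5′ to 3′ along the gene, with E2F-type matches in capitals.
Brca2: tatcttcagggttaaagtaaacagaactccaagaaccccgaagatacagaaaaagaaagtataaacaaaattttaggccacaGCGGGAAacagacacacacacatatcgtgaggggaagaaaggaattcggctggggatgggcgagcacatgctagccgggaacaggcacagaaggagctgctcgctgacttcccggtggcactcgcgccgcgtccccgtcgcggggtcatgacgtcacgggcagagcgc
Fancb: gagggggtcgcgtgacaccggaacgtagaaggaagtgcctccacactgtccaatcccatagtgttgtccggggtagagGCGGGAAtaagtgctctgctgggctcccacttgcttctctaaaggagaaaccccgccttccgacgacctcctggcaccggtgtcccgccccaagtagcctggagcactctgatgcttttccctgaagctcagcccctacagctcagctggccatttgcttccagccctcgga
Fancf: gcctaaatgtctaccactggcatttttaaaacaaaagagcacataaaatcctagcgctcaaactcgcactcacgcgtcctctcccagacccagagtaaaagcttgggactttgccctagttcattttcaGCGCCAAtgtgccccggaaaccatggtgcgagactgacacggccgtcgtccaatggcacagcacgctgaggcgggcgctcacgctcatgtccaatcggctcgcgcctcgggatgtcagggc
Fancm: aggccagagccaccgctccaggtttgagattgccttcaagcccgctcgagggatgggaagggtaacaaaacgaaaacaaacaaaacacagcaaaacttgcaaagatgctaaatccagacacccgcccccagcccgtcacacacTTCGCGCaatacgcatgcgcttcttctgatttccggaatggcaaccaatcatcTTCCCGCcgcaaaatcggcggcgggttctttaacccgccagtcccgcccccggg
Trp53bp1: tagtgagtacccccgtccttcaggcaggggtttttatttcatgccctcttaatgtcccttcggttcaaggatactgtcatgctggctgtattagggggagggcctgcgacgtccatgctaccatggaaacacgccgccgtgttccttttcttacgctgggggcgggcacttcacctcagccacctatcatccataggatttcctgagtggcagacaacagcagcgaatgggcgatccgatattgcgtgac

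The match in Brca2 begins at base -168 from the start, that in Fancb at -172, that in Fancf at -121, and those in Fancm at -107 and -54. Trp53bp1 has none in its window, and neither do Mus81, Timeless, Parp1 and Fancl, which hold none of the 3 motifs. The windows shown were not picked by a rule. Eme1, Rad54l and Timeless fell by 2 or more on the log2 scale at pH 6.6 with IL-2 and have no E2F-type match. The median log2 fold change at pH 6.6 with IL-2 was -1.17 for the 20 genes with an E2F-type match and -1.13 for the 14 without. In the other comparisons the medians lay further apart, at 0.74 and 0.41 for pH 6.6 without IL-2, 2.35 and 1.61 for IL-2 at pH 7.4, and -2.04 and -1.59 for the interaction. These differences between genes with and without a match were not tested.

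The same acid step was then examined in cells without IL-2, where it went the other way for most of the genes. At pH 6.6, 25 of the 41 genes were higher than at pH 7.4 and 4 were lower (edgeR, adjusted p under 0.05), against 31.6% higher and 35.4% lower of all genes tested. The median log2 fold change was 0.73, beside -0.03 for all genes, and the ranges of 27 of the 41 did not overlap, as was so for 47.4% of all genes. Of the 25, 15 rose by 1 or more on the log2 scale (6.97% of all genes) and 8 by 2 or more (1.88%).

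Brca1 rose most. It read 8.304, 9.82, 10.2, 8.68 and 8.18 CPM at pH 7.4 without IL-2 and 51.4, 94.7, 97.8, 48.3 and 55.1 CPM at pH 6.6, a log2 fold change of 2.89 ± 0.13 or 7.43-fold (adjusted p = 1.7e-18, edgeR). Replicates 2 and 3 were well above the other 3 at pH 6.6, and each of the 5 was above every neutral library. Clspn rose from 5.52, 3.53, 4.701, 2.795 and 2.44 CPM to 23.7, 37.97, 41.3, 19.3 and 18.6 CPM (2.84 ± 0.19, adjusted p = 6.7e-14, edgeR). Rad51ap1 rose from 2.197, 3.18, 2.795, 2.003 and 1.28 CPM to 16.3, 23.7, 22.99, 8.35 and 10.4 CPM (2.799 ± 0.18, adjusted p = 1e-14, edgeR), again with replicates 2 and 3 highest. Fanca (2.61 ± 0.17), Rad54b (2.46 ± 0.24), Fancd2 (2.37 ± 0.19), Chek1 (2.304 ± 0.15) and Bard1 (2.26 ± 0.15) also rose by over 2 on the log2 scale.

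These rises started from low levels. Chek1 went from 2.29, 1.53, 1.82, 1.84 and 1.198 CPM to 8.46, 11.2, 10.4, 6.301 and 6.95 CPM, and Exo1 from 1.03, 1.18, 0.974, 0.501 and 0.856 CPM to 3.703, 4.57, 5.27, 2.17 and 2.49 CPM (1.97 ± 0.25, adjusted p = 3.1e-08, edgeR). Both stayed far below their levels at pH 7.4 with IL-2. By role, 12 of 16 homologous recombination genes, 4 of 10 Fanconi genes, 1 of 2 mismatch repair genes, 5 of 9 checkpoint genes and 3 of 4 fork and break genes rose. Of all genes tested, 31.6% did, so the Fanconi count is near that share, and 2 mismatch repair genes are too few to compare. Falls were called in 1 homologous recombination gene, 2 Fanconi genes and 1 checkpoint gene (35.4% of all genes). Msh6 (0.74 ± 0.09) and Mms22l (1.17 ± 0.08) were among the genes that rose. Tonsl (0.34 ± 0.08) and Trp53bp1 (0.83 ± 0.07) rose here as they did with IL-2.

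The 4 genes that fell without IL-2 were Atm (-0.74 ± 0.18), Fancf (-0.66 ± 0.16), Mus81 (-0.66 ± 0.12) and Fancg (-0.54 ± 0.07), and all 4 had also fallen with IL-2. Atm read 154, 138, 139, 165 and 146 CPM at pH 7.4 and 104, 99.3, 82.1, 71.2 and 91.97 CPM at pH 6.6, with no overlap (adjusted p = 0.00057, edgeR). Fancg read 44.7, 41.7, 44.9, 39.5 and 39.6 CPM and 30.7, 28.9, 30.1, 26.9 and 28.04 CPM (adjusted p = 6.1e-08, edgeR). Mus81 went from 15.02 ± 1.01 to 9.55 ± 1.17 CPM and Fancf from 2.54 ± 0.465 to 1.595 ± 0.341 CPM. The 12 genes that were not called ranged from -0.30 for Brca2 (19.04 ± 3.15 to 15.5 ± 2.68 CPM, adjusted p = 0.13, edgeR) to 0.27 for Chek2 (adjusted p = 0.056).

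**Figure D3:**
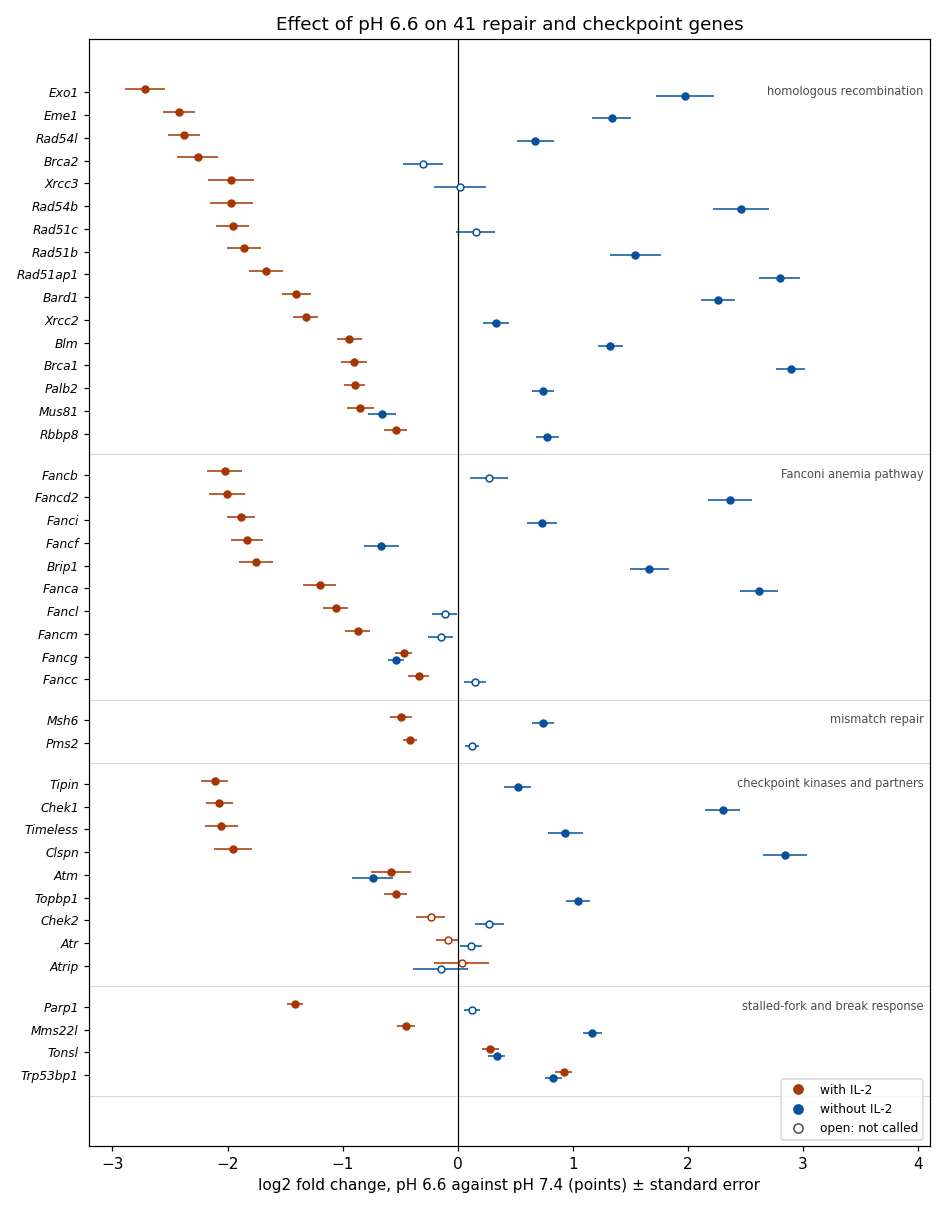
Log2 fold change of pH 6.6 against pH 7.4 for each of the 41 genes, with IL-2 (brown) and without IL-2 (blue), grouped by role. Bars are standard errors and open points were not called. With IL-2, 36 points lie to the left of 0 and are filled. Without IL-2, 25 lie to the right and are filled, and Atm, Fancf, Fancg and Mus81 fall while Tonsl and Trp53bp1 rise in both media.

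Whether the effect of acid differed between the media was tested as an interaction, the log2 fold change with IL-2 minus that without. It was negative for 34 of the 41 genes and positive for 0 (edgeR, adjusted p under 0.05), where 32.8% of all genes tested were negative and 34.3% positive. Its median was -1.96 over the 41 genes and 0.04 over all. By DESeq2 it was positive for 0 as well, as it was in edgeR at an unadjusted p under 0.05. The largest values were -4.79 ± 0.25 for Clspn (adjusted p = 1.3e-16, edgeR), -4.69 ± 0.30 for Exo1 (adjusted p = 5.2e-15) and -4.47 ± 0.23 for Rad51ap1 (adjusted p = 3.6e-17).

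The genes fell into a few patterns across both media. In 23, including Brca1, Bard1, Clspn, Chek1, Exo1, Fancd2, Msh6 and Mms22l, the call was lower at pH 6.6 with IL-2 and higher without, a combination seen in 9.89% of all genes tested. In 9 (Brca2, Fancb, Fancc, Fancl, Fancm, Parp1, Pms2, Rad51c and Xrcc3) only the fall with IL-2 was called (13.1% of all genes), and the interaction was called in each of them, for example -1.96 ± 0.25 for Brca2 (adjusted p = 3.3e-08, edgeR) and -1.54 ± 0.10 for Parp1 (adjusted p = 2.3e-15). The 7 genes with no called interaction were Atm, Atr, Atrip, Fancg, Mus81, Tonsl and Trp53bp1. For Trp53bp1 the interaction was 0.09 ± 0.10, for Tonsl -0.05 ± 0.11 and for Fancg 0.07 ± 0.10, each less than its standard error.

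At pH 7 far fewer of the genes were called. With IL-2, 1 of the 41 genes was higher and 2 were lower than at pH 7.4 (edgeR, adjusted p under 0.05), against 9.15% higher and 9.83% lower of all genes tested, and the median was -0.01. Fancg was higher (0.26 ± 0.07, adjusted p = 0.0076, edgeR), with values of 47.2, 55.3, 57.4, 51.8 and 49.2 CPM that lay above those at pH 7.4 (41.7, 44.2, 45.03, 45.4 and 41.2 CPM). It is 1 of the genes that fell at pH 6.6. Tipin (-0.32 ± 0.11, adjusted p = 0.04, edgeR) and Parp1 (-0.18 ± 0.07, adjusted p = 0.049) were lower, with ranges that overlapped. The count was not steady. Of the 41 genes, 0 passed when replicate 2 or replicate 3 was left out, 1 when replicate 1 was, and 6 when only the groups compared were fitted. Without the replicate block 1 was called.

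Without IL-2, 4 of the 41 were higher at pH 7 than at pH 7.4 and 0 were lower (edgeR, adjusted p under 0.05), where 1.36% of all genes were higher and 0.318% lower. By DESeq2, 5 were higher and 0 lower, against 241 and 65 of 13551 genes. At an unadjusted p under 0.05 in edgeR, 13 were higher and 0 lower, and the share of all genes was not computed. The 4 in the main fit were Rad51b (1.02 ± 0.23, adjusted p = 0.012, edgeR), Fanca (0.89 ± 0.17, adjusted p = 0.0032), Clspn (0.83 ± 0.20, adjusted p = 0.02) and Rad51ap1 (0.78 ± 0.19, adjusted p = 0.024). Fanca read 4.26, 2.51, 3.896, 2.503 and 2.697 CPM at pH 7.4 and 6.13, 7.19, 5.66, 4.63 and 5.83 CPM at pH 7, with no overlap, while the ranges of the other 3 overlapped. All 4 rose at pH 6.6 as well. The median over the 41 genes was 0.17, beside 0.00 for all genes, and was positive in 5 of 5 replicates. With replicate 2 left out 0 of the 41 were called, with replicate 3 left out 1, and with only the groups compared 12. Without the replicate block 2 were called.

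The effect of IL-2 itself was read at each pH. At pH 7.4, 36 of the 41 genes were higher with IL-2 than without and 1 was lower (edgeR, adjusted p under 0.05), against 39.3% higher and 41.1% lower of all genes tested. The median log2 fold change was 2.30, beside -0.04 for all genes. Of the 36, 30 rose by 1 or more on the log2 scale (20.1% of all genes) and 11 by 4 or more (1.74%). Exo1, which read only 0.501 to 1.18 CPM without IL-2, rose by 6.16 ± 0.22, Clspn by 5.49 ± 0.20, Chek1 by 5.42 ± 0.15 and Fancd2 by 5.11 ± 0.19, and Chek1, for example, went from 1.74 ± 0.406 to 74.8 ± 7.74 CPM (SD, n = 5, adjusted p = 1.1e-24, edgeR). The gene that was lower with IL-2 was Trp53bp1 (-0.34 ± 0.07, adjusted p = 0.0001, edgeR), at 113 ± 5.26 CPM without and 89.6 ± 7.07 CPM with IL-2. Atm (-0.01 ± 0.18), Fancg (0.05 ± 0.07), Tonsl (0.02 ± 0.08) and Atrip (-0.08 ± 0.24) were not called.

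At pH 7, 37 of the 41 were higher with IL-2 and 1, again Trp53bp1 (-0.30 ± 0.07), was lower (edgeR), with a median of 2.04, while 37.6% and 39.5% of all genes were higher and lower. At pH 6.6 far less was left. Only 18 of the 41 were higher with IL-2, 1 was lower and 22 were not called, against 13.2% higher and 10.6% lower of all genes, and the median was 0.27. Exo1 (1.47 ± 0.19, adjusted p = 5.9e-07, edgeR), Rad54l (1.38 ± 0.15, adjusted p = 1e-08) and Chek1 (1.04 ± 0.13, adjusted p = 1.3e-07) were the 3 that still rose by 1 or more. Brca1, which IL-2 raised by 3.71 ± 0.13 at pH 7.4, did not pass at pH 6.6 (-0.08 ± 0.11, adjusted p = 0.65, edgeR). Its values were 51.4, 94.7, 97.8, 48.3 and 55.1 CPM without and 43.8, 79.1, 84.5, 54.8 and 60.7 CPM with IL-2, and in each replicate both cultures lay close together. The single lower gene was Trp53bp1 (-0.25 ± 0.07, adjusted p = 0.011, edgeR), which was no longer called without replicate 1, 2 or 3. Without replicate 4, 12 genes in all were called at pH 6.6, and without the replicate block 11.

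Cells in acid with IL-2 were therefore set against cells at pH 7.4 from which IL-2 was withdrawn. Of the 41 genes, 32 were higher in acid with IL-2 and 3 were lower (edgeR, adjusted p under 0.05), where 30.4% of all genes were higher and 34.1% lower, with a median of 0.70. The 28 genes that were lower than at pH 7.4 with IL-2 and higher than at pH 7.4 without IL-2, where 13.6% of all genes were both, included Clspn (3.54 ± 0.19 above withdrawal), Exo1 (3.44 ± 0.23), Chek1 (3.34 ± 0.15) and Parp1 (0.22 ± 0.07). Brca2 was not among them, since at 20.05, 18.6, 20.1, 23.6 and 22.6 CPM it was not called against withdrawn cells (17.8, 17.04, 16.3, 24.2 and 19.9 CPM; 0.14 ± 0.17, adjusted p = 0.49, edgeR). Atm (-0.59 ± 0.18), Mus81 (-0.47 ± 0.12) and Fancg (-0.42 ± 0.07) were the 3 that were lower.

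Relative to the starting cells at 0 h, the groups went apart. With IL-2 at pH 7.4, 34 of the 41 genes were higher than at 0 h and 0 were lower (edgeR, adjusted p under 0.05, and also 0 by DESeq2 and at an unadjusted p under 0.05). Of all genes tested, 29% and 30.9% were higher and lower, and the median of the 41 was 1.39. The direction was the opposite after withdrawal at pH 7.4, with 4 higher, 32 lower and a median of -0.73 (all genes: 36.9% higher, 38.3% lower). The 4 that were higher than at 0 h after withdrawal were Atm (1.16 ± 0.18), Trp53bp1 (0.39 ± 0.07), Fancm (0.50 ± 0.11) and Fancg (0.40 ± 0.07).

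At pH 6.6 with IL-2 the genes were divided, with 12 higher than at 0 h, 11 lower and 18 not called (all genes: 30.5% higher, 38% lower) and a median of 0.08, which was -0.02 without replicate 5. Brca1 was higher (29.3 ± 6.23 CPM at 0 h and 64.6 ± 16.96 CPM in acid; 1.13 ± 0.12, adjusted p = 3.1e-10, edgeR), as were Fanca (1.28 ± 0.15) and Trp53bp1 (0.97 ± 0.07), while Fancf (-1.700 ± 0.14), Mus81 (-0.90 ± 0.12) and Tipin (-0.62 ± 0.11) were lower. At pH 6.6 without IL-2, 13 were higher and 20 lower (all genes: 34.8% higher, 40.3% lower), with a median of -0.31. Brca1 again stood above 0 h (1.21 ± 0.12, adjusted p = 3.8e-11, edgeR), and Exo1 (-1.998 ± 0.19), Chek1 (-1.496 ± 0.12) and Fancf (-2.22 ± 0.15) stood below it. These 4 comparisons share the 0 h libraries.

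**Figure D4:**
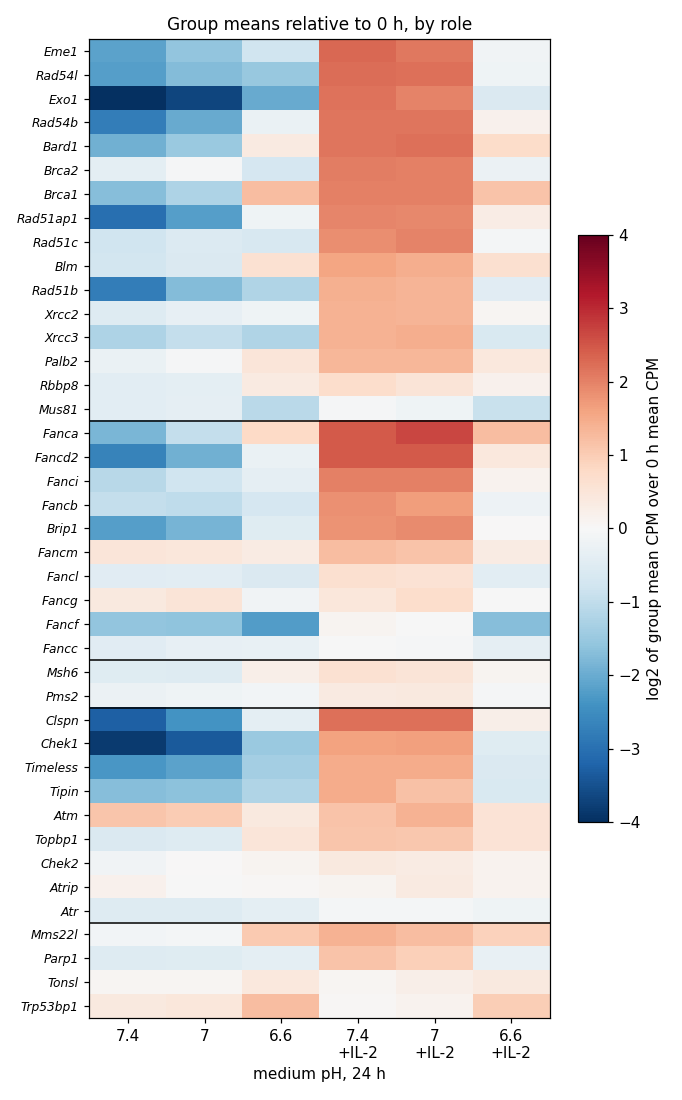
Heat map of the log2 ratio of each group's mean CPM to the mean at 0 h, with 1 row for each of the 41 genes and 1 column for each 24 h group. Black lines separate the roles, and red is above and blue below 0 h. The pH 7.4 and pH 7 columns with IL-2 are red for most genes, the pH 7.4 column without IL-2 is blue for most, with Chek1 and Exo1 darkest, and both pH 6.6 columns are pale for most genes.

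Other genes of these pathways, from a list of 66 further repair genes that were all tested, were mostly lower at pH 6.6 with IL-2 and divided without it. With IL-2, 40 were lower, 15 higher and 11 not called (edgeR; all genes tested: 40.9% lower, 35.4% higher), with a median of -0.53. Without IL-2, 23 were higher and 19 lower, near the shares of all genes (31.6% and 35.4%), with a median of 0.04. The single-strand binding subunit Rpa2 had a log2 fold change of -1.32 ± 0.08 with IL-2, and Usp1, which removes ubiquitin from Fancd2, of -1.53 ± 0.09. Among the 15 that rose were Xpa (1.41 ± 0.16, adjusted p = 1.5e-09, edgeR) and Ercc5 (1.29 ± 0.09, adjusted p = 5.1e-15), and the glycosylase gene Neil1 (2.46 ± 0.11) rose most. These 5 were picked from the list after their values were seen.

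Markers of the cell cycle moved with the repair genes. All 20 S phase and all 20 G2/M genes of 2 short lists were lower at pH 6.6 with IL-2 (edgeR, medians -2.31 and -1.89). Of all genes tested, 40.9% were lower there. Without IL-2, 16 of the 20 and 20 of the 20 were higher at pH 6.6 (medians 0.83 and 2.02), against 31.6% of all genes. At pH 7 without IL-2, 19 of the 20 G2/M genes were higher (median 0.92) and 1 of the 20 S phase genes was. The share of all genes that were higher there was 1.36%. In other assays of such cells, the paper reports less division in acid medium. Its report of no preferential block at any phase follows its assays with IL-2. Whether that covers withdrawn cells is not stated in its main text. The share of cycling cells was not measured in these libraries, and the part of the cell cycle in the values of the 41 genes was not tested.

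Replicates differed in a recurrent way. In the 5 libraries at pH 6.6 without IL-2, the mean log2 CPM of the 41 genes was 4.34 and 4.35 in replicates 2 and 3, against 4.096, 3.91 and 3.97 in replicates 1, 4 and 5. Over the genes, the median log2 difference of pH 6.6 from pH 7.4 without IL-2 was 0.92 and 0.94 in replicates 2 and 3 and 0.47, 0.44 and 0.58 in replicates 1, 4 and 5. With IL-2 the same median was -1.54, -1.37, -1.19, -1.14 and -1.16 in replicates 1 to 5. The direction was the same in 5 of 5 replicates in each medium, and the size was not.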

How the data were processed

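The deposited files hold raw read counts per gene, which the authors made, per the submitters' processing notes, with cutadapt 1.8, STAR 2.5.2b and HTSeq 0.6.1 on GRCm38 from Illumina TruSeq stranded mRNA libraries. The strand setting and annotation are not given in the sources used here. Summary lines for reads outside genes stayed out of library sizes and tests. Their median shares per library were 37.1% for reads not aligned uniquely, 7.42% for no feature and 0.922% for ambiguous reads. Replicate 5 at 0 h had the highest share not aligned uniquely (48.3%) and the lowest share of no feature (2.58%). The libraries hold 16721319 to 34033340 counts on genes. Standard errors and p-values of the fits reflect the spread between cultures that is left after group and replicate number. The standard error was derived from the log2 fold change and its F statistic.

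Genes were kept by filterByExpr (minimum count 10), scaled by TMM and tested with edgeR 4.0.16 (quasi-likelihood, robust, R 4.3.3) in 1 fit of 35 libraries with group and replicate number as terms, with Benjamini-Hochberg adjustment over 13819 genes and a threshold of 0.05. The block was used because each biological replicate was cultured in every condition. Within-group deviations correlated at over 0.1 in 95 of 105 pairs of libraries that shared a number and came from different groups. Between pH 7.4 and pH 6.6 with IL-2 they did so in 5 of 5 pairs (0.198 to 0.416). CPM used TMM-scaled totals, and RPKM the exon lengths of the annotation. Of 48709 gene identifiers 48349 matched a symbol. No libraries were duplicates. The scripts were tested on simulated data. Sequences came from RefSeq (GRCm38.p6).

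Values per library are given for the 2 genes of each role with the largest change at pH 6.6 with IL-2, for genes called opposite to the rest there and for the 3 largest interactions, and for others named as chosen later. Members and lists were chosen with earlier results of these data known. Alternatives were RLE scaling, DESeq2 1.42.0, a loose filter (1 count in any library), a strict filter (10 counts in every library), no replicate block, each replicate left out, only the groups compared, and a further threshold of 1 on the size of the log2 fold change.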

Additional observations from a re-analysis of the deposited data

Results flagged for a closer look

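The effect of pH 6.6 differed between cells with and without IL-2 in 34 of the 41 genes, by edgeR's test of the interaction itself. Among the genes described above, the difference on the log2 scale was -4.794 for Clspn, -4.688 for Exo1, -4.466 for Rad51ap1, -4.375 for Chek1, -4.369 for Fancd2, -3.792 for Brca1 and -3.761 for Eme1. It was -2.633 for Tipin, -2.295 for Fancb and -1.959 for Brca2, and smaller in size for Mms22l (-1.617), Parp1 (-1.538), Msh6 (-1.229), Fancf (-1.168) and Pms2 (-0.5381). In each of these genes the log2 fold change for pH 6.6, not the level itself, was lower with IL-2 than without.

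In 3 of 147 groups of 5 values that were looked at, 1 library stood apart from the other 4 by more than Dixon's critical value of 0.71, where chance gives about 1 in 20 groups. Fancb read 7.732 CPM in the highest library at 0 h, Fancd2 read 13.69 CPM in the lowest at pH 6.6 with IL-2, and Trp53bp1 read 162.5 CPM in the lowest at pH 6.6 without IL-2. Trp53bp1 in that library was still above every library at pH 7.4.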

How the results depend on the processing

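The medians over the 41 genes kept their sign in all but 2 comparisons. At pH 7 with IL-2, where it lay near 0, the median was positive under 6 alternatives (at most 0.01), and for pH 6.6 with IL-2 against 0 h it was -0.02 without replicate 5. Counting only genes that moved by 1 or more on the log2 scale, 23 were called at pH 6.6 with IL-2. There, 19% of all genes tested fell by as much. For pH 6.6 without IL-2 the count was 15, and 6.97% of all genes rose by as much. It was 0 at pH 7 with IL-2, 1 at pH 7 without IL-2 and 3 for IL-2 at pH 6.6. For pH 6.6 with IL-2 against pH 7.4 without IL-2 it was 19. Against 0 h it was 19 for pH 7.4 without IL-2, 3 for pH 6.6 with IL-2 and 12 for pH 6.6 without IL-2. Shares of all genes at this cut were not computed for the pH 7, IL-2 at pH 6.6, withdrawal and 0 h comparisons. Whether those counts differ from those of all genes was not tested. At pH 7 with IL-2 the count of 3 became 1 with the loose filter, 1 without the replicate block, 6 with only the groups compared and 0 to 3 with a replicate left out. At pH 7 without IL-2 the count of 4 became 2 with the loose filter, 2 without the replicate block, 12 with only the groups compared and 0 to 4 with a replicate left out. For IL-2 at pH 6.6 the count of 19 became 11 without the replicate block and 12 to 21 with a replicate left out. Dropping the block kept the other counts within 1.5 times. The median for IL-2 at pH 7 was 1.84 with the strict filter, under which 40 genes were tested. The cause of these changes was not tested.

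Of the recomputed counts 134 stayed within 1.5 times and 22 did not. Of the recomputed values of the 20 genes named by the rule or chosen later 1059 kept direction and call, 14 lost the call, 12 gained it and 15 changed sign. None of those 15 was called. For IL-2 at pH 7.4, Tonsl was -0.025 with the strict filter and -0.031 to 0.050 with a replicate left out, Atm was 0.0010 with the loose filter, 0.027 without the replicate block and -0.18 to 0.13 with a replicate left out, and Fancg was -0.021 to 0.084. For IL-2 at pH 6.6, Tonsl was 0.00893 with only the groups compared and Brca1 -0.14 to 0.0087 with a replicate left out. The interaction was 0.00011 for Tonsl with the strict filter, -0.084 to 0.024 for Tonsl and -0.028 to 0.40 for Atm with a replicate left out. Depth limits Atrip, Rad51b, Exo1 and Rad54b, whose mean in 1 or more groups was at most 1.2 CPM. For Exo1 this was at pH 7.4 and pH 7 without IL-2 (0.909 and 1.13 CPM), so its fold changes against those groups rest on low counts.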

Other observations

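Genes that p53 is known to activate were mostly higher at pH 6.6 in both media. With IL-2, where most of the 41 repair genes were lower, 15 of 22 such genes were higher and 2 lower (edgeR's quasi-likelihood test, Benjamini-Hochberg adjusted), against 35.4% and 40.9% of all genes tested, with a median of 0.70. Without IL-2, where most of the repair genes were higher too, 13 were higher and 0 lower (0 also by DESeq2, with RLE scaling and at an unadjusted p under 0.05), against 31.6% and 35.4%, with a median of 0.62. Plk2, a stress-responsive kinase gene, rose by 2.68 ± 0.19 (SE) with IL-2 and by 2.71 ± 0.19 without. Bbc3, which encodes the apoptosis activator PUMA, rose by 2.84 ± 0.19 and 1.02 ± 0.17, and Cdkn1a, which encodes the cell cycle inhibitor p21, by 0.78 ± 0.14 and 1.62 ± 0.14. Mdm2, whose product limits p53, rose by 0.64 ± 0.08 and 0.78 ± 0.08. Bax (-0.30 ± 0.10) and Aen (-0.29 ± 0.09) were the 2 that fell with IL-2. The interaction was positive for 7 of the 22 and negative for 5, against 34.3% and 32.8% of all genes. Polk is in this list and in that of other repair genes.

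All 8 E2F genes, which encode factors that control S phase transcription, fell at pH 6.6 with IL-2 (40.9% of all genes tested), with a median of -1.33 on the log2 scale. In withdrawn cells 3 were higher and 2 lower there, against 31.6% and 35.4% of all genes, with a median of 0.06. E2f7 and E2f8, which encode repressors, changed by -2.06 ± 0.17 and -2.52 ± 0.20 with IL-2 and by 3.48 ± 0.26 and 2.70 ± 0.26 without. E2f1, which encodes an activator, changed by -2.27 ± 0.17 with IL-2 and was not called without it (0.16 ± 0.20, adjusted p = 0.5, edgeR).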
